A study of Mus musculus with 37 samples.

Results

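Pax6 and Ppp1r17 are 2 of the 25239 genes in a count table from embryonic mouse hearts, and both were lower where 1 Isl1 allele was lost. They were chosen by their measured counts: averaged over both Nipbl genotypes, both had a lower level in embryos with 1 working Isl1 allele than in embryos with both. That contrast is therefore given as a description, with no test, and supports nothing by itself. Both genes passed the filter on low counts, which kept 15046 genes.

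RNA of whole hearts dissected at stage E10.5 was sequenced in bulk, giving 37 libraries of 4 genotypes. Wild-type embryos (Nipbl +/+; Isl1 +/+) gave 10 libraries, and Isl1 +/-, Nipbl +/- and Nipbl +/-; Isl1 +/- embryos gave 9 each. The last group is called the compound heterozygotes here. All were offspring of Stra8-iCre; Nipbl Flox/+ males and Isl1 Cre/+ females. The father can pass on Nipbl as the unmodified + allele, as Flox, a working allele, or as FIN. FIN is a null allele made in the male germ line where Stra8 drives iCre. The Isl1 allele lost in both Isl1 +/- groups carries a Cre recombinase, which the other groups lack, so losing the allele and carrying Cre cannot be told apart. Whether that Cre acted on a Flox allele in these hearts was not measured. The labels also give each library a code made of the letters IVF and a number (1, 2, 5, 6 or 7), called the set here, without saying what it marks. Set 1 holds wild-type and Isl1 +/- libraries alone, and set 7 holds compound heterozygote replicate 2 alone. Litters are not given, so p-values measure the spread between these libraries. A level in bulk RNA cannot tell fewer expressing cells apart from less RNA per cell.

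Isl1 is a LIM homeodomain transcription factor of the second heart field, the progenitors that add the outflow tract, right ventricle and much of the atria, and it also acts in motor and sensory neurons and in the pancreas. Nipbl loads cohesin, the ring complex that folds chromatin into loops. Pax6 is a paired-box and homeodomain transcription factor known for building the eye, the forebrain and neural tube and the endocrine pancreas, and it is not a classical heart gene. Ppp1r17, also called G-substrate, is known from cerebellar Purkinje cells: cyclic GMP-dependent protein kinase phosphorylates it, and the phosphorylated protein inhibits the phosphatases PP1 and PP2A.

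Pax6 lies on the plus strand of chromosome 2, at chr2:105668896-105698410 (RefSeq, GRCm38.p6), and Ppp1r17 at chr6:56017497-56032689. Homeodomain proteins such as Isl1 bind sites built on TAAT, so the 250 bases before each of the 2 Pax6 start sites in the RefSeq promoter table are printed 5′ to 3′ with every TAAT or its reverse complement ATTA in capitals. The windows are chr2:105668646-105668895 and chr2:105682213-105682462, both on the plus strand, and the start sites lie 13.6 kb apart. No GENCODE M21 exon overlaps the first window, and 1 annotated exon overlaps the other.
Pax6 start site 1: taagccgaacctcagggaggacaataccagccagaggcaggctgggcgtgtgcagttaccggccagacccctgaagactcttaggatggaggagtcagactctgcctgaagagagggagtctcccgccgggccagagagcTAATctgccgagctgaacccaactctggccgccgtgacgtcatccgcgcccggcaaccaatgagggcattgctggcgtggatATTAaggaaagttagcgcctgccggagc
Pax6 start site 2: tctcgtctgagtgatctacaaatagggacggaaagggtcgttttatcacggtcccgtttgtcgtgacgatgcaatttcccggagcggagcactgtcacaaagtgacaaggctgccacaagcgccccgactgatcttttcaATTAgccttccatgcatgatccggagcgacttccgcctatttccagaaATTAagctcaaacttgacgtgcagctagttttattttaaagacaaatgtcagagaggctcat
Each window held 2 matches, which begin 110 and 28 bases before start site 1 and 110 and 62 bases before start site 2. The longer motif CTAATG (reverse complement CATTAG) had no match in either. Of 32851 mouse promoters with windows of the same length, 54.9% held TAAT on either strand, 30.8% held 2 or more, and 6.36% held CTAATG. A match is a description of the letters and not a binding site. Ppp1r17 has no entry in the promoter table.

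Library totals ran from 23356831 to 50974736 counts, with a median of 36239721. The targeted gene Nipbl stood at 60.0 ± 10.1 CPM (the count relative to the TMM-scaled library total, with SD and n = 10) in wild-type, 61.5 ± 5.88 (n = 9) in Isl1 +/-, 39.3 ± 13.8 (n = 9) in Nipbl +/- and 38.1 ± 7.41 (n = 9) in the compound heterozygotes. The library labelled Nipbl +/- replicate 2 went against its label, at 72.4 CPM of Nipbl where the next highest of its group had 44.9. The main fitted changes of Pax6 and Ppp1r17 that rest on it are given without it too. Group levels, within-set differences and covariate fits include it. The tissue label was checked with a list of 12 cardiomyocyte genes: all 12 were tested, and Actc1, cardiac alpha actin, averaged 9314 CPM.

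Pax6 was detected in every library, at low counts. Raw counts of Pax6 ran from 5 to 25 with a median of 17.5 in wild-type, from 4 to 17 with a median of 14 in Isl1 +/-, from 22 to 47 with a median of 36 in Nipbl +/- and from 8 to 32 with a median of 17 in the compound heterozygotes. Summed over a group these are 174, 105, 313 and 145 reads. Poisson sampling alone gives an SD of 4.17 counts in wild-type, 3.42 in Isl1 +/-, 5.90 in Nipbl +/- and 4.01 in the compound heterozygotes, and the observed SDs were 5.78, 4.56, 9.55 and 7.01. The observed SDs of these raw counts also hold differences in library total, and the excess over counting error was not tested. The lowest library, Isl1 +/- replicate 4, had 4 counts with an exact Poisson 95% interval of 1.09 to 10.2, and the highest, Nipbl +/- replicate 9, had 47 counts with an interval of 34.5 to 62.5. These intervals cover counting error only.

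After scaling, Pax6 averaged 0.533 ± 0.140 CPM (SD, n = 10) in wild-type, 0.318 ± 0.131 (n = 9) in Isl1 +/-, 0.905 ± 0.251 (n = 9) in Nipbl +/- and 0.464 ± 0.191 (n = 9) in the compound heterozygotes. In CPM the order from low to high was thus Isl1 +/-, compound heterozygote, wild-type and Nipbl +/-, and the compound heterozygotes and wild-type overlapped across most of their range. All 9 Isl1 +/- libraries lay below the wild-type mean, and 3 lay below every wild-type library. All 9 Nipbl +/- libraries lay above every Isl1 +/- library. Of the 9 compound heterozygotes, 8 lay below every Nipbl +/- library, and the exception was replicate 1 with 32 counts. Each of these counts sets a group with 1 Isl1 allele against one with both, as did the contrast that chose the genes. The share of all genes that separate the groups in this way was not counted, so nothing is read from them.

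Ppp1r17 was easily measured and far steadier. Its raw counts ran from 575 to 1269 with a median of 1024 in wild-type, from 782 to 1218 with a median of 921 in Isl1 +/-, from 1015 to 1431 with a median of 1184 in Nipbl +/- and from 810 to 1232 with a median of 930 in the compound heterozygotes. In CPM, Ppp1r17 averaged 30.8 ± 5.20 (SD, n = 10), 25.4 ± 2.48 (n = 9), 32.1 ± 4.22 (n = 9) and 27.6 ± 5.18 (n = 9) in the same order. Both groups with 1 Isl1 allele were low, as the choice of the gene implies. The counts of libraries that follow are likewise a description, without the share over all genes. All 9 Isl1 +/- libraries lay below the wild-type mean and 4 lay below every wild-type library, while 8 of 9 compound heterozygotes lay below the Nipbl +/- mean and 6 lay below every Nipbl +/- library. The exception was compound heterozygote replicate 2, the lone library of set 7, at 40.4 CPM. Its next neighbour had 30.6.

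The 2 genes differ widely in abundance even per length. On the scale of CPM per kilobase of exon (GENCODE M21 exon union, 11.7 kb for Pax6 and 1.76 kb for Ppp1r17), the wild-type level of Pax6 was 0.0456 ± 0.0120 and that of Ppp1r17 was 17.5 ± 2.96 (SD, n = 10). Isl1 itself stood between them at 1.86 ± 0.566 on that scale. In CPM, Isl1 averaged 7.37 ± 2.24 (n = 10) in wild-type, 6.28 ± 1.76 (n = 9) in Isl1 +/-, 13.0 ± 2.82 (n = 9) in Nipbl +/- and 9.50 ± 3.51 (n = 9) in the compound heterozygotes, so its group means ran in another order from those of Pax6 and Ppp1r17, with the compound heterozygotes above wild-type.

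**Figure D1:**
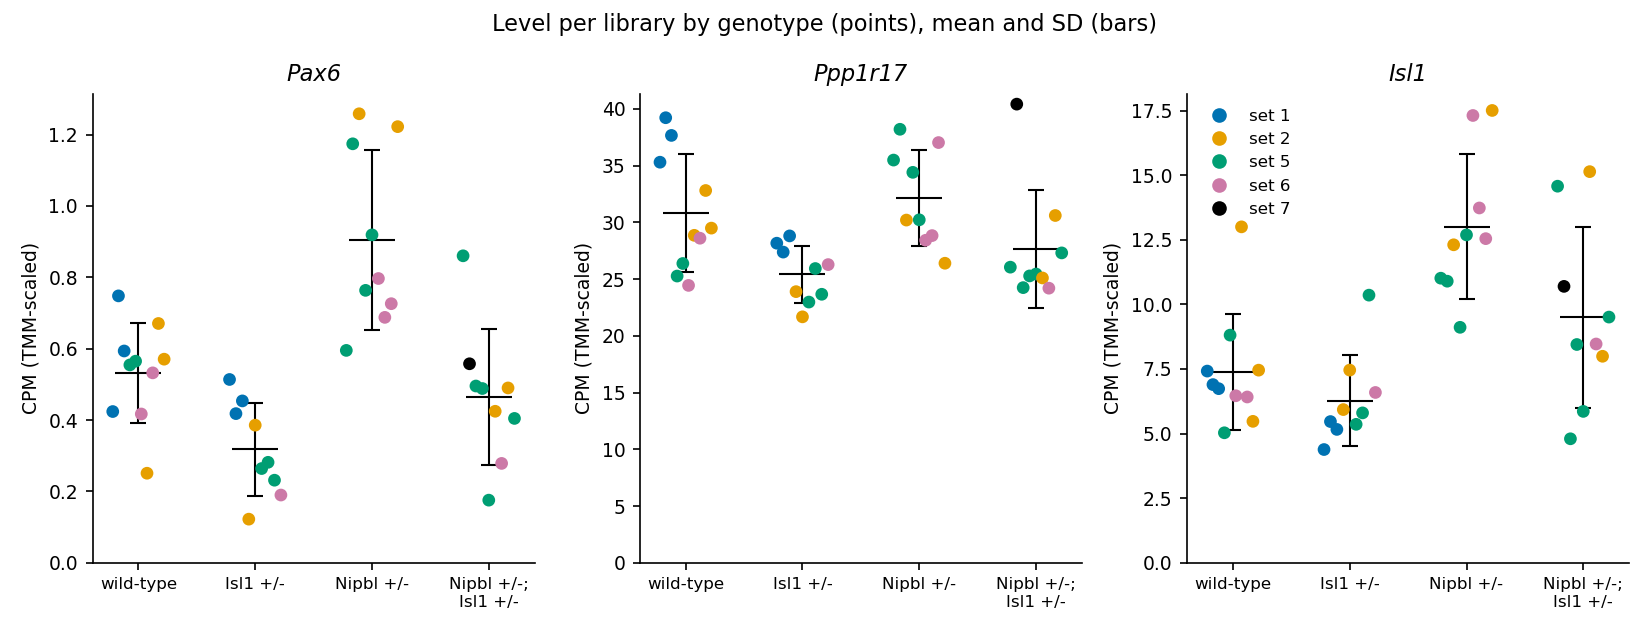
Level of Pax6, Ppp1r17 and Isl1 in each library, in CPM after TMM scaling, by genotype, with points coloured by set number and bars for the mean and SD of each group (n = 10 wild-type and 9 of each other genotype). Pax6 is lowest in Isl1 +/- and highest in Nipbl +/-, Ppp1r17 is low in both groups with 1 Isl1 allele, and the 40.4 CPM of Ppp1r17 belong to the lone library of set 7.

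The comparison that chose the genes sets the Isl1 +/- and compound heterozygous libraries against wild-type and Nipbl +/- at equal Nipbl genotype, in an edgeR quasi-likelihood fit of all libraries with genotype and set number as factors. Averaged over both Nipbl genotypes, Pax6 was lower with 1 Isl1 allele by a log2 change of -0.95 (SE 0.17), 0.519 of the level with both alleles, and Ppp1r17 by -0.30 (SE 0.05), 0.813 of that level. On the Nipbl +/+ background the changes were -0.83 (SE 0.23) for Pax6 and -0.28 (SE 0.07) for Ppp1r17, and on the Nipbl +/- background they were -1.06 (SE 0.23) and -0.31 (SE 0.07). Without the library labelled Nipbl +/- replicate 2 the latter were -1.01 and -0.29, and the averages -0.92 and -0.29. Pax6 thus stood at 0.563 and 0.479 of its reference on the 2 backgrounds, and Ppp1r17 at 0.822 and 0.804. Only 4 of 15046 genes, or 0.0266%, were past the threshold in the lower direction of the averaged contrast, and since this contrast chose the members nothing is read from that share. The other 2 were Cadm1, a cell adhesion molecule, at -0.24, and Mtmr7, a myotubularin-related lipid phosphatase, at -0.28. Just outside the threshold lay Pth1r at -0.17 and Septin4 at -0.28. Taken each alone, neither background passed 0.05 for any gene by edgeR with Benjamini-Hochberg adjustment: 886 genes on Nipbl +/+ and 1355 on Nipbl +/- had an unadjusted p under 0.05, and with the same design DESeq2 called 11 and 0.

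Isl1 mRNA itself did not pass the test in the same comparison. Its log2 change was -0.20 (SE 0.18, adjusted p = 0.877) on Nipbl +/+, -0.47 (SE 0.19, adjusted p = 0.518) on Nipbl +/- and -0.33 (SE 0.14, adjusted p = 0.322) on average, by edgeR's quasi-likelihood test with Benjamini-Hochberg adjustment over 15046 genes. The Isl1 count is of RNA from a locus with Cre in 1 allele, and which part of that transcript the counts cover is not given in the sources used here, so it does not check the genotype.

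**Figure D2:**
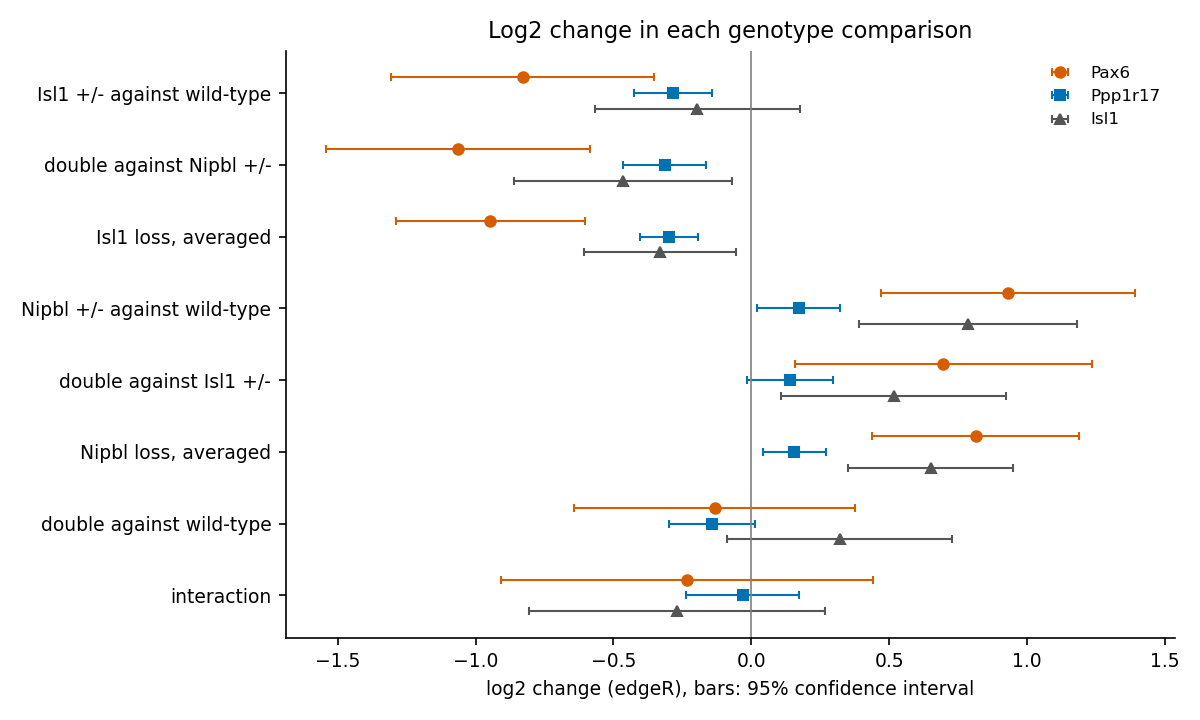
Log2 change of Pax6, Ppp1r17 and Isl1 in each genotype comparison, from an edgeR fit with genotype and set number over 37 libraries, with bars for the 95% confidence interval. The Isl1 comparisons put Pax6 between -1.06 and -0.83 and Ppp1r17 near -0.30, and the Nipbl comparisons put Pax6 and Isl1 above 0 with Ppp1r17 close to it.

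Loss of 1 Nipbl allele was not used to choose either gene. Pax6 rose: averaged over both Isl1 genotypes its log2 change was 0.81 (SE 0.19, 95% interval 0.44 to 1.19), 1.76 times the level with both Nipbl alleles, with an adjusted p = 0.00697 by edgeR's quasi-likelihood test with Benjamini-Hochberg adjustment. In that contrast 2.67% of all genes were called higher. Against wild-type alone Pax6 rose in Nipbl +/- by 0.93 (SE 0.23, interval 0.47 to 1.39, edgeR adjusted p = 0.0231, Benjamini-Hochberg), where 1.2% of genes were called higher. All 9 Nipbl +/- libraries had more Pax6 than the wild-type mean, and 6 had more than any wild-type library. How many of all genes separate these groups as far was not counted. Among embryos with 1 Isl1 allele the Pax6 change was 0.70 (SE 0.26, interval 0.16 to 1.23) and did not pass, with an edgeR adjusted p = 0.351 (Benjamini-Hochberg) where 0.532% of genes were called higher. There 7 of 9 compound heterozygotes lay above the Isl1 +/- mean.

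Without the library labelled Nipbl +/- replicate 2, the Pax6 changes were 0.79 on average (adjusted p = 0.00585) and 0.88 against wild-type (adjusted p = 0.0291), by edgeR with Benjamini-Hochberg adjustment. The call against wild-type was lost without Nipbl +/- replicate 3 (0.87, edgeR adjusted p = 0.0555) or replicate 9 (0.88, edgeR adjusted p = 0.0603), without any of sets 1, 2, 5 and 6, and with the set number dropped or replaced by the replicate number. The averaged call was lost without set 2 or set 5.

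Ppp1r17 did not pass the test for Nipbl loss. Its log2 change was 0.16 on average (SE 0.06, interval 0.04 to 0.27, edgeR adjusted p = 0.130, Benjamini-Hochberg), 0.17 against wild-type (SE 0.07, interval 0.02 to 0.32, edgeR adjusted p = 0.257, Benjamini-Hochberg) and 0.14 among embryos with 1 Isl1 allele (SE 0.08, interval -0.02 to 0.30, edgeR adjusted p = 0.773, Benjamini-Hochberg). Of the 9 Nipbl +/- libraries, 4 lay above the wild-type mean of Ppp1r17 and 6 above its median. The wild-type mean includes set 1, where wild-type Ppp1r17 was highest (37.4 CPM), and which holds no Nipbl +/- library. Without the library labelled Nipbl +/- replicate 2 the average was 0.14 (edgeR adjusted p = 0.110, Benjamini-Hochberg) and the change against wild-type also 0.14 (edgeR adjusted p = 0.363, Benjamini-Hochberg). The difference between Pax6 and Ppp1r17 in their response to Nipbl was not tested.

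Isl1 rose with Nipbl loss too. Its log2 change was 0.65 on average (SE 0.15, edgeR adjusted p = 0.00655, Benjamini-Hochberg) and 0.79 against wild-type (SE 0.19, edgeR adjusted p = 0.0252, Benjamini-Hochberg). Among embryos with 1 Isl1 allele it was 0.52 (SE 0.20) and did not pass (edgeR adjusted p = 0.379, Benjamini-Hochberg). The Isl1 call against wild-type was lost without set 1, 2 or 6, with the summed level of neuronal genes as a covariate, and without wild-type replicate 4, 6, 8 or 9 or Nipbl +/- replicate 9 (edgeR adjusted p up to 0.188 over these, Benjamini-Hochberg). The averaged Isl1 call was lost without set 2 or set 6 and with that covariate (edgeR adjusted p up to 0.113, Benjamini-Hochberg). Whether the 2 rises are linked was not tested beyond the correlations given further on.

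In embryos that lost 1 allele of each gene, Pax6 stood close to wild-type, with a log2 change of -0.13 (SE 0.25), and Ppp1r17 stood at -0.14 (SE 0.08). For Pax6, leaving out 1 library gave -0.33 to -0.03, and other settings gave -0.28 to -0.01. Within sets 2, 5 and 6 its difference in mean log2 CPM was -0.02, -0.32 and -0.66. The interaction asks whether the Isl1 effect differed between the Nipbl genotypes. It was -0.23 for Pax6 (SE 0.33, interval -0.91 to 0.44) and -0.03 for Ppp1r17 (SE 0.10, interval -0.24 to 0.17), each with an edgeR adjusted p = 0.999 (Benjamini-Hochberg). No gene passed that test, 411 had an unadjusted p under 0.05, and DESeq2 called 0. The compound heterozygotes thus held a Pax6 level between those of the 2 single heterozygotes. Without the library labelled Nipbl +/- replicate 2 the interactions were -0.18 and 0.00.

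Ppp1r17 differed between sets at equal genotype (edgeR F = 9.64, adjusted p = 4.83e-04, Benjamini-Hochberg), as did 38.2% of all genes, and Pax6 was not called (F = 2.07, edgeR adjusted p = 0.179, Benjamini-Hochberg). Whether the set effect differed between the 2 genes was not tested, and Pax6 has far fewer counts. Among wild-type libraries Ppp1r17 averaged 37.4 CPM in set 1, 30.4 in set 2, 25.8 in set 5 and 26.5 in set 6, with 2 or 3 libraries each. The wild-type spread of Ppp1r17 thus lay largely between sets.

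Each comparison can also be read within sets. For Isl1 +/- against wild-type the difference in mean log2 CPM was -0.29, -0.89, -0.97 and -1.10 in sets 1, 2, 5 and 6, and for the compound heterozygotes against Nipbl +/- it was -1.34, -0.86 and -1.24 in sets 2, 5 and 6. For Nipbl +/- against wild-type it was 1.32, 0.54 and 0.59 in those 3 sets, and for the compound heterozygotes against Isl1 +/- 0.87, 0.65 and 0.44. Set 6 holds 1 Isl1 +/- and 1 compound heterozygous library. Pax6 was thus higher with 1 Nipbl allele in 6 of 6 within-set differences. It was lower with 1 Isl1 allele in 7 of 7, which splits the same values that chose the gene and supports nothing further.

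Ppp1r17 was likewise lower with 1 Isl1 allele in 7 of 7 within-set differences, again values that chose it. For Isl1 +/- against wild-type its difference was -0.41 in sets 1 and 2 but -0.10 in set 5 and -0.01 in set 6. For the compound heterozygotes against Nipbl +/- it was -0.03 in set 2 and -0.43 and -0.37 in sets 5 and 6. Each background thus held sets with a difference close to 0 and sets with a clear one, and they were not the same sets. For Nipbl +/- against wild-type the values of Ppp1r17 were -0.10, 0.42 and 0.24 in sets 2, 5 and 6, and for the compound heterozygotes against Isl1 +/- they were 0.28, 0.09 and -0.12, so Ppp1r17 was higher with 1 Nipbl allele in 4 of 6.

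**Figure D3:**
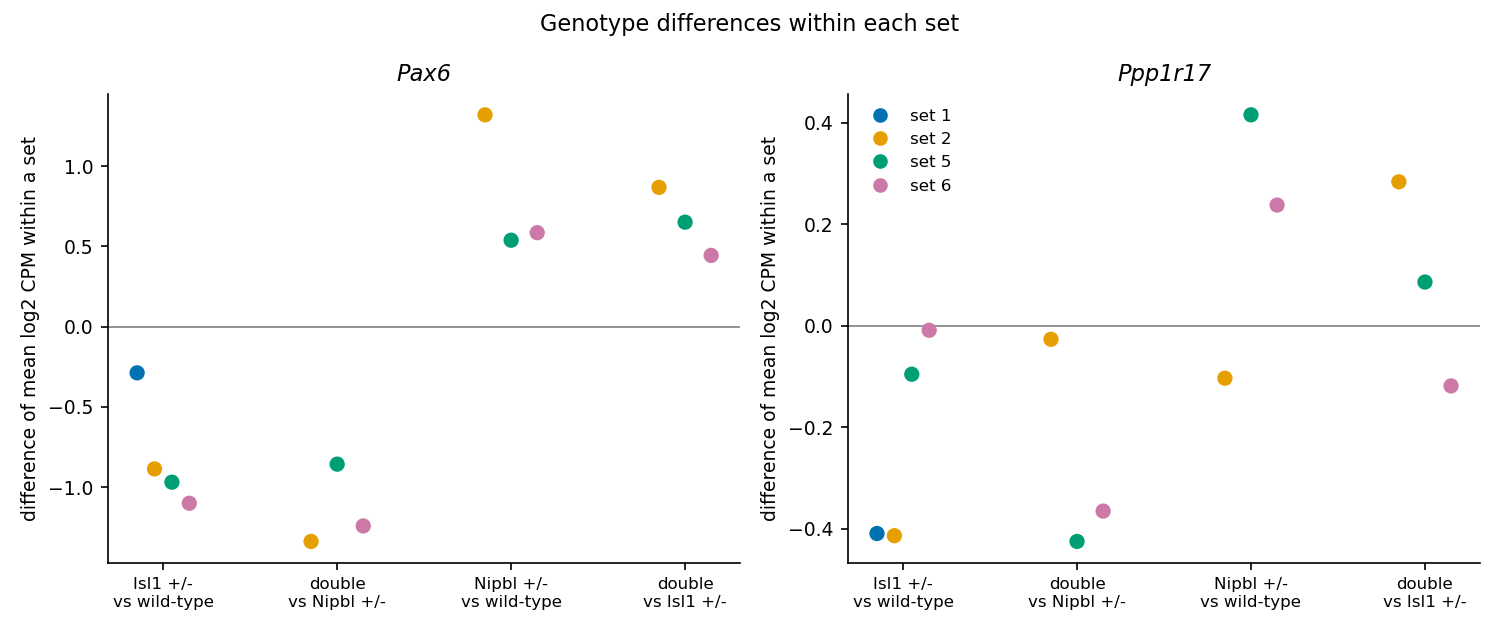
Difference of mean log2 CPM between 2 genotypes within each set, for Pax6 and Ppp1r17, with 1 point per set that holds both genotypes and points coloured by set number. Every Pax6 point of a comparison lies on the same side of 0, from -1.34 to 1.32, while Ppp1r17 has points close to 0 in each comparison.

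The correlations ask whether libraries with more Isl1 mRNA also had more of either gene. Pooled over 37 libraries, log2 CPM of Pax6 and Isl1 had r = 0.47 and rho = 0.46, and r = 0.38 without the 2 libraries farthest from the median of Isl1. Ppp1r17 and Isl1 had r = 0.19 and rho = 0.26, and Pax6 and Ppp1r17 had r = 0.52 and rho = 0.62. These pooled values hold the genotype differences by which the genes were chosen and so are a description.

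With genotype and set removed, 36 libraries were left, and none of the 3 relations passed. Pax6 and Isl1 had r = 0.03 (permutation p = 0.864, adjusted over 3 relations 0.864) and rho = -0.14 (permutation p = 0.416, adjusted 0.503). Ppp1r17 and Isl1 had r = -0.14 (permutation p = 0.425, adjusted 0.787) and rho = -0.12 (permutation p = 0.503, adjusted 0.503). Pax6 and Ppp1r17 had r = -0.11 (permutation p = 0.525, adjusted 0.787) and rho = -0.22 (permutation p = 0.207, adjusted 0.503). Common variation of the 2 genes between libraries of the same genotype and set was thus not detected at this depth. Counting error limits the relations of Pax6, and in the Isl1 +/- groups Isl1 RNA comes from a locus with Cre in 1 allele. A low r therefore does not decide whether either gene followed Isl1. Without the 2 libraries farthest from the median of the x measure, r was -0.13, -0.16 and -0.16 in the same order.

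The Pax6 relation with Isl1 took opposite signs in different genotypes, as residual r values of -0.74 in wild-type (n = 10), 0.00 in Isl1 +/- (n = 9), 0.22 in Nipbl +/- (n = 9) and 0.51 in the compound heterozygotes (n = 8), given as a description with no test. Within sets 1, 2, 5 and 6 it was -0.82, -0.35, 0.41 and -0.23. In wild-type, replicate 7 had the most Isl1 of its group (13.0 CPM), the fewest Pax6 counts (5) and the smallest total of the study (23356831 counts). For Ppp1r17 and Isl1 the residual r within genotypes was -0.09, 0.07, -0.60 and 0.02 in the same order.

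**Figure D4:**
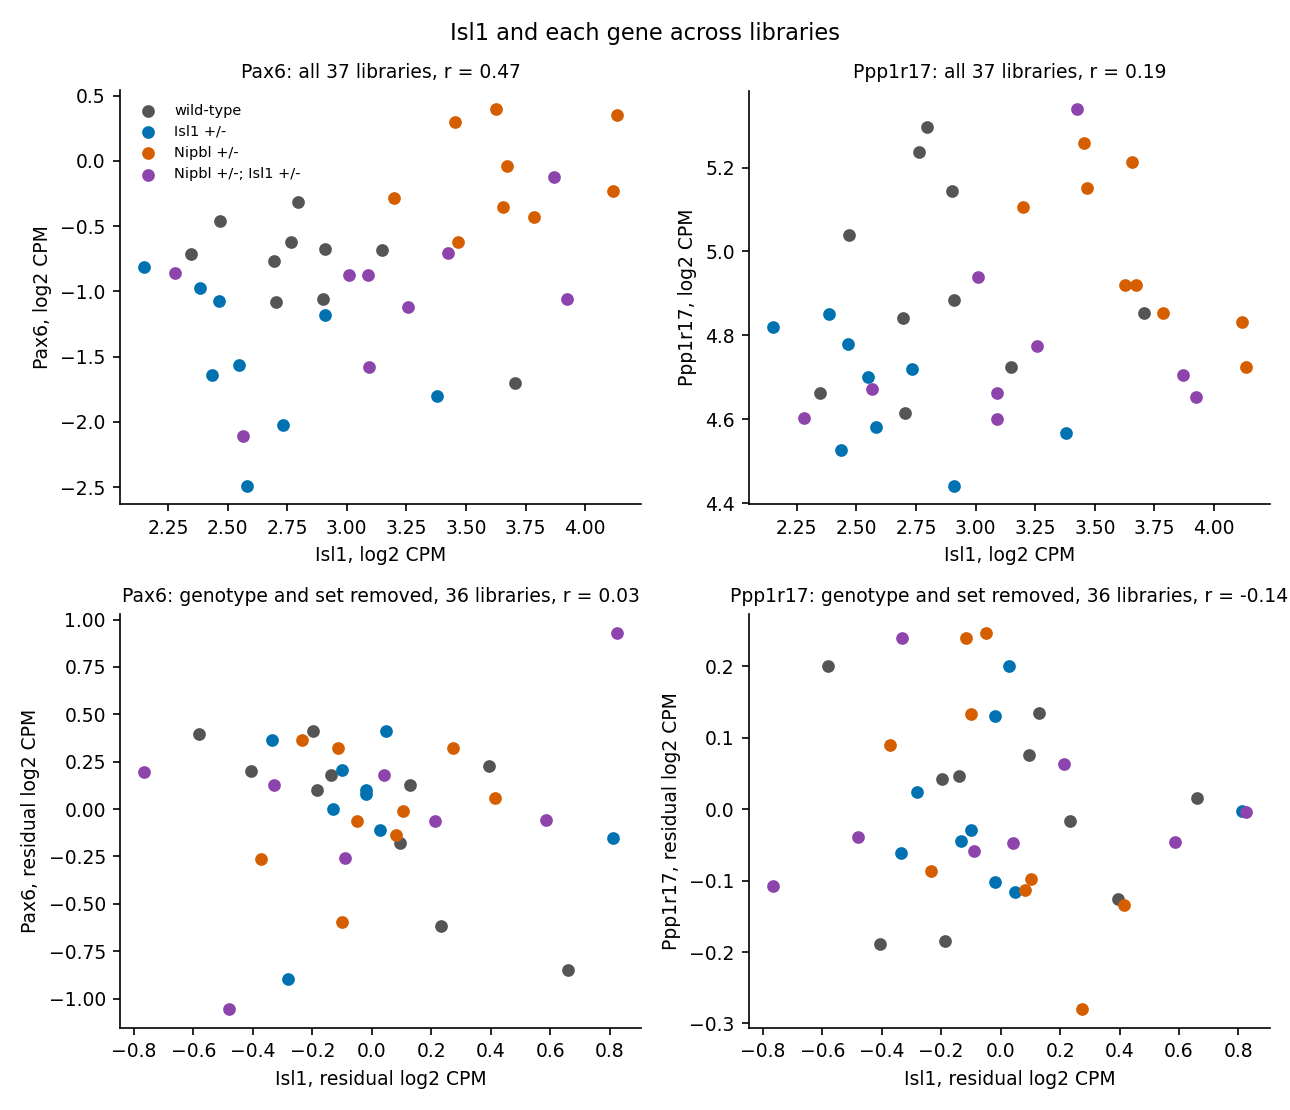
Isl1 against Pax6 and against Ppp1r17 in log2 CPM, with 1 point per library coloured by genotype, before (top, 37 libraries) and after (bottom, 36 libraries) removing genotype and set. The pooled r of 0.47 for Pax6 and 0.19 for Ppp1r17 become 0.03 and -0.14.

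Of all genes tested, those most like Pax6 between libraries of the same genotype and set were Rab4a (residual r = 0.62), a GTPase of endosome recycling, Zfp575 (0.59), Map6d1 (0.58), the transcription factor Klf4 (0.57) and Tmem51 (0.56), each over 36 libraries. Ppp1r17 ranked 10816 of 15045 by that measure and Isl1 6750. Those most like Ppp1r17 were Rsrc1 (0.78), a splicing factor, Ugp2 (0.76), the enzyme that makes UDP-glucose, Zfp617 (0.74), Akr1e1 (0.73) and the carbonic anhydrase Car13 (0.71). Likeness was closer for Ppp1r17, whose counts are larger. These are the highest of 15045 values, and the libraries share depth and scaling.

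Genes beside Pax6 were not called in either averaged contrast. Elp4, a subunit of the Elongator complex, overlaps the 3′ end of Pax6 from the other strand and had 380 to 1020 counts per library. Its log2 change was 0.03 with Isl1 and 0.07 with Nipbl loss, neither passing, and its residual r with Pax6 was -0.03. The antisense gene Pax6os1, which overlaps the 5′ end of Pax6, had 22 counts in all 37 libraries together and at most 5 in any, and the long noncoding RNA Paupar had 3. The strand setting of the counting is not given in the sources used here. Reads of Elp4 or Pax6os1 and of Pax6 therefore cannot be told apart where those genes overlap Pax6. Further on, Immp1l and Dnajc24 had log2 changes of -0.15 and -0.11 with Isl1 and -0.03 and -0.05 with Nipbl loss, none of which passed. Beside Ppp1r17, the gene Itprid1 had 6 counts in all, and Pde1c, a phosphodiesterase that splits cyclic AMP and cyclic GMP, had 63 to 510 counts per library and log2 changes of -0.20 and 0.09 that did not pass.

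Of the other 8 Pax genes, 6 had a median count of 0. Summed, the 8 averaged 0.365 CPM in wild-type, 0.493 in Isl1 +/-, 0.614 in Nipbl +/- and 0.685 in the compound heterozygotes, so the sum was above Pax6 in both groups with 1 Isl1 allele. Pax2 had a median of 4 counts. Only Pax8 passed the filter on low counts, at 0.248 CPM, and it was not called in either averaged contrast. Genes that accompany Pax6 in the eye and brain were mixed, some at 0 and some at or above the level of Pax6. Of 13 forebrain and eye field genes, 6 had a median count of 0, among them Six3, Six6 and Rax, and of the 3 tested none was called. The highest was Mab21l2 at 18.9 CPM, and Lhx2 stood at 1.34 and Otx2 at 0.390. Of 17 neural tube progenitor genes, 11 had a median of 0, among them Sox1, Olig2, Pax3, Pax7, Neurog1 and Neurog2, 4 were tested, and Sox3 alone was called. Of the others Irx3 stood at 29.0 CPM, Fabp7 at 0.608 and Sox2 at 0.406. Sox3, a progenitor transcription factor, fell by 0.83 on the log2 scale with Nipbl loss (edgeR adjusted p = 1.52e-06, Benjamini-Hochberg), the direction opposite to Pax6. Of 16 genes of pancreas and foregut endoderm, 10 had a median of 0, including Pdx1, Neurog3, Ins1, Ins2 and Gcg. Of the 3 tested, Sox17, which endothelium also expresses, rose with Nipbl loss by 0.40 (edgeR adjusted p = 0.0453, Benjamini-Hochberg). These are 1 of 4 and 1 of 3 tested genes, where 4.02% of all genes were called with Nipbl loss in either direction, and lists this short show little.

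Of 20 neuronal genes 16 were tested, and their summed level ran from 74.4 to 112.9 CPM in wild-type, 63.8 to 93.8 in Isl1 +/-, 74.6 to 104.5 in Nipbl +/- and 68.7 to 99.6 in the compound heterozygotes. The means, 89.0, 79.4, 94.6 and 86.0 CPM, had the same order as those of Pax6 and Ppp1r17. Tubb3 (31.7 CPM), Gap43 (27.7) and Nefl (13.6) make up most of that sum. Tubb3, a neuronal tubulin, and Nefl, a neurofilament, rose with Nipbl loss by 0.49 and 0.25 (edgeR adjusted p = 0.0234 and 0.0162, Benjamini-Hochberg), and Snap25, a synaptic vesicle fusion protein, fell by 0.57 (edgeR adjusted p = 0.0293, Benjamini-Hochberg), 3 of 16 where 4.02% of all genes were called. In the compound heterozygotes against wild-type, Gap43, a growth cone protein, and Snap25 fell by 0.41 and 0.79 (edgeR adjusted p = 0.0283 and 0.0405, Benjamini-Hochberg). These are 2 of 16, where 0.824% of all genes were called lower, and the median log2 change of the 16 was 0.13. With genotype and set removed, the summed level had r = 0.28 with Pax6 and -0.06 with Ppp1r17, as a description over 36 libraries. Other lists reached values of larger size, such as -0.34 for erythroid and 0.31 for cardiomyocyte genes with Pax6. PP1 and PP2A catalytic subunits had 0.51 with Ppp1r17. Before genotype and set were removed, the neuronal sum had r = 0.61 with Pax6 and 0.52 with Ppp1r17. Of all lists these were the largest in size, but such pooled values hold the genotype differences by which the genes were chosen. With the neuronal sum as a covariate, chosen after seeing the data, Pax6 changed by 0.65 with Nipbl loss on average (edgeR adjusted p = 0.0998, Benjamini-Hochberg). With Isl1 loss Pax6 changed by -0.79. Ppp1r17 changed by 0.16 with Nipbl loss (edgeR adjusted p = 0.197, Benjamini-Hochberg) and by -0.31 with Isl1 loss. The part of neurons in these levels was not tested beyond this.

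Other cells of the dissection varied as well. Of 10 erythroid genes 8 were tested, and their sum ran from 1870 to 106530 CPM in wild-type, 827 to 48424 in Isl1 +/-, 502 to 23423 in Nipbl +/- and 1322 to 54171 in the compound heterozygotes. Their median log2 change with Isl1 loss was 1.04, against -0.01 over all genes, and none was called. Adding the erythroid level as a covariate, chosen after seeing the data, gave Pax6 changes of -0.82 with Isl1 loss and 0.77 with Nipbl loss (edgeR adjusted p = 0.00874, Benjamini-Hochberg), and Ppp1r17 changes of -0.27 and 0.15. Of 10 liver genes 6 were tested and none was called, with a highest sum of 454.8 CPM in Nipbl +/- against 40.1 or less in the other groups. Of 10 neural crest and glia genes 7 were tested and none was called. None of the 12 cardiomyocyte genes was called either.

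Over all genes 0.173% were called with Isl1 loss and 4.02% with Nipbl loss in the averaged contrasts, and the counts of list members are read against these shares. Of 20 second heart field genes and Isl1 partners 19 were tested, and with Isl1 loss none was called, their median log2 change being -0.10. With Nipbl loss 2 rose, Isl1 itself and Tbx1, a T-box factor of the pharyngeal and outflow progenitors, by 1.07 (edgeR adjusted p = 0.0143, Benjamini-Hochberg). In the compound heterozygotes against wild-type, Tbx1 and Tbx18 rose by 1.37 and 0.38 (edgeR adjusted p = 0.0348 and 0.0186, Benjamini-Hochberg). These are 2 of 19, where 1.77% of all genes were called higher. On the side of Ppp1r17, all 5 PP1 and PP2A catalytic subunits were tested and none was called in either averaged contrast, with medians of -0.05 and -0.03 for Isl1 and Nipbl loss. Of 11 other small PP1 inhibitors 9 were tested and none was called, with medians of -0.10 and -0.05. Of 11 cyclic GMP kinases and cyclases 10 were tested, and Prkg1, the kinase that phosphorylates G-substrate, rose with Nipbl loss by 0.23 (edgeR adjusted p = 0.0479, Benjamini-Hochberg) and was not called with Isl1 loss. No member of any of the 13 lists was called with Isl1 loss, where 0.173% of all genes were, so that count sets no list apart.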

How the data were processed

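Mouse embryonic hearts (stage E10.5) gave 37 bulk RNA-seq libraries. The authors deposited 1 table of raw counts, with 1 row per gene symbol and 1 column per library, and 0 columns of other samples were present. Per the submitters' processing notes, reads were processed with STAR and featureCounts against GRCm38 (mm10). Versions, annotation, strand setting and filters are not given in the sources used here, so reads in overlapping genes may be shared between them. Per the labels' protocols, RNA extraction used a Monarch kit of New England Biolabs, and library construction its NEBNext Ultra II kit.

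Genotypes came from the titles and set numbers from the description label. Genes with low counts were dropped by filterByExpr, given the genotypes, at a minimum count of 10, scaled to library size, in enough libraries for the smallest genotype and a minimum total of 15. TMM factors and the quasi-likelihood test of edgeR 4.0.16 (R 4.3.3 and limma 3.58.1) were used, the factors of the fit being genotype and set, with all 37 libraries sharing the estimate of spread. The term of set 7 fits compound heterozygote replicate 2 exactly, so comparisons of that genotype rest on 8 libraries. Tests were two-sided with Benjamini-Hochberg adjustment over 15046 genes and a threshold of 0.05. Log2 CPM used a prior count of 2, and residual correlations were tested with 100000 permutations. The fit was tested on simulated data. Comparisons between genotypes share libraries, so their values are given side by side. Chi-square tests of the 153 pairs of libraries within a genotype gave at least 7.19 times their degrees of freedom, more than sampling noise.

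Both genes, the tests and the 13 gene lists were chosen with earlier results of these data known. Genes named are the members, Isl1 and Nipbl, the 5 genes most like each member, its 3 neighbours on each side, list members past the threshold and examples of list levels. Some list members are not reported here. The covariates for neuron and erythroid level and a permutation within genotype and set were added after seeing the data. Alternatives were DESeq2 1.42.0, other size factors, other filters, sva 3.50.0, other set or replicate terms and leaving out each set and library. Coordinates and promoters are from RefSeq (GRCm38.p6), in which 1 of the 2 genes had a promoter entry.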

Additional observations from a re-analysis of the deposited data

Results flagged for a closer look

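Of 16 groups of values examined (4 genes in 4 genotypes), 3 held a library whose distance from the rest passed Dixon's 95% critical value, and chance flags about 1 group in 20. Ppp1r17 stood at 40.4 CPM in compound heterozygote replicate 2, the lone library of set 7, where the next highest of its 9 libraries had 30.6. The set term fits that library exactly, and compound heterozygote comparisons rest on the other 8. Isl1 stood at 13.0 CPM in wild-type replicate 7, where the next of 10 libraries had 8.81. The same library had the lowest total, 23356831 counts, and with 5 counts the least Pax6 of its group. Nipbl stood at 72.4 CPM in the library labelled Nipbl +/- replicate 2, where the next of 9 had 44.9. That library had 43 Pax6 counts and 38.2 CPM of Ppp1r17, high for both genes in its group.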

How the results depend on the processing

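The rise of Pax6 in Nipbl +/- against wild-type (0.93) kept its direction in every setting run but lost its call with no set term (0.75, edgeR adjusted p = 0.0577), with the replicate number as a block (0.77, edgeR adjusted p = 0.0650), without set 1 (0.82, edgeR adjusted p = 0.124), set 2 (0.78, edgeR adjusted p = 0.264), set 5 (1.08, edgeR adjusted p = 0.0554) or set 6 (1.02, edgeR adjusted p = 0.0737), and with the neuron covariate (0.77, edgeR adjusted p = 0.0912). Leaving out 1 library gave 0.85 to 1.00. The averaged rise (0.81) lost its call without set 2 (0.71, edgeR adjusted p = 0.133) or set 5 (0.77, edgeR adjusted p = 0.109) and with the neuron covariate (0.65, edgeR adjusted p = 0.0998). Leaving out a set removes libraries, and the cause of the other losses was not tested. The Pax6 interaction was -0.62 without set 5 and ran from -0.43 to -0.10 with 1 library left out. Without set 1 the Pax6 interaction changed sign (0.015). That of Ppp1r17 did so with no set term (0.059), with the replicate block (0.047), without set 5 (0.15) or set 6 (0.019), and leaving out 1 library gave -0.075 to 0.0040. With genotype alone removed, r was -0.026 for Pax6 and Isl1 and 0.235 for Pax6 and Ppp1r17. With genotype and set removed, leaving out 1 library gave r from -0.17 to 0.19 for Pax6 and Isl1. The lower levels with Isl1 loss ran from -1.08 to -0.79 for Pax6 and from -0.33 to -0.25 for Ppp1r17 over the settings, and since this contrast chose both genes its steady direction supports nothing. Pax6 could not be fitted with at least 10 counts in every library. The set difference of Ppp1r17 passed in every setting run (highest edgeR adjusted p = 0.0304, without set 1). The Ppp1r17 change in Nipbl +/- against wild-type (0.17) was 0.042 without set 5 and 0.27 without set 2. With no set term it was 0.061 and with the replicate block 0.063. Its averaged change with Nipbl loss (0.16) ran from 0.086 to 0.18 over the settings, and neither change passed in any setting run. Counts of genes called varied widely: 0 to 243 around 26 for the averaged Isl1 effect, 152 to 2057 around 605 for the averaged Nipbl effect and 31 to 1332 around 258 for Nipbl +/- against wild-type, and 12 to 763 around 144 for the compound heterozygotes against Isl1 +/-. With no set term the averaged Isl1 effect, the contrast that chose both genes, called 0 genes. Replicate numbers do not pair the libraries: the 54 same-numbered pairs correlated at -0.45 to 0.55 with a median of 0.03, and 3 of 36 libraries matched their own number best. Counts of 4 to 47 limit Pax6.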
